A study of Bos indicus x Bos taurus with 78 samples.

Results

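The miR-378 family was examined in small RNA libraries of loin muscle, as the 4 rows of the count matrix whose name is miR-378 with or without a letter from a to d, out of 1030 rows. These rows are bta-miR-378, bta-miR-378b, bta-miR-378c and bta-miR-378d, written below without the prefix for cattle, and all 4 passed the low-count filters. Longissimus lumborum biopsies came from 78 male Bos indicus x Bos taurus steers, 1 library each, made with a NEXTflex small RNA kit from total RNA. The 25 dark-cutting steers carried a labelled degree of 1/4 (8 steers), 1/3 (9 steers), 1/2 (3 steers), 2/3 (4 steers) or 3/4 (1 steer), and 53 steers were normal. Age, diet and pre-slaughter handling are not in the labels used here. The question was whether the family differed with the dark-cutting phenotype or its degree.

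MicroRNAs are short RNAs that guide Argonaute proteins to messenger RNAs and lower their output. In mouse and human, miR-378 is processed from an intron of PPARGC1B, which encodes the mitochondrial coactivator PGC-1beta. In mice miR-378 is known to restrain mitochondrial fatty acid oxidation, with carnitine acetyltransferase (Crat) as a described target. It also rises when mouse myoblasts differentiate. Dark-cutting is a meat colour defect associated with depleted glycogen in the muscle. The letters b, c and d denote closely related mature miRNAs. The mature sequences are not printed here, so overlap between the rows was judged from the counts.

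Library totals ran from 2687185 to 4370459 counts in dark-cutting steers and from 1427817 to 4535675 in normal steers. The tissue label fitted the markers: the muscle miRNAs miR-1, miR-133a, miR-133b and miR-206 summed to between 831531 and 895505 CPM (counts scaled to a common library size, here by total count) in dark-cutting and between 753181 and 898736 in normal steers, whereas liver miR-122 reached at most 0.627 and 1.15. Because miR-1 alone took 79.6% to 88.1% of counts in dark-cutting and 72.3% to 88.6% in normal steers, family levels are given as CPM with library sizes scaled by TMM, a method that aligns the bulk of the miRNAs between libraries. TMM factors were between 0.730 and 1.43 in dark-cutting and between 0.718 and 1.91 in normal steers. Across steers they fell as the share of miR-1 rose (Spearman rho -0.87, as a description), so the choice of scaling matters for every level below.

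miR-378 dominated the family. It held 92.7% ± 0.631 (SD, n = 78) of the family's reads, miR-378c 5.98% ± 0.514, miR-378d 0.922% ± 0.180 and miR-378b 0.425% ± 0.112. By mean CPM, miR-378 ranked 14 among the 252 miRNAs tested, at 3432 ± 628 CPM (SD, n = 78), and took 0.225% to 0.810% of a library's counts. miR-378c followed at rank 58 with 222 ± 45.7 CPM, miR-378d at rank 121 with 33.9 ± 8.04 CPM and miR-378b at rank 142 with 16.01 ± 6.06 CPM. These are read counts of mature miRNAs, so ligation preferences of the kit can shift levels between rows. The order miR-378, miR-378c, miR-378d was the same in 78 of 78 steers. miR-378d exceeded miR-378b in 77 of 78, and in the remaining steer it had 0.957 times the reads of miR-378b.

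All 4 rows had reads in every steer, but their depth differed. miR-378 had 7627 to 23925 reads in dark-cutting and 5313 to 20225 in normal steers, and miR-378c had 476 to 1562 and 335 to 1210. miR-378d had 67 to 256 reads in dark-cutting and 51 to 223 in normal steers. miR-378b was the shallowest, with 32 to 119 and 12 to 110, so its levels carry the most counting error.

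No family row was a copy of another. No pair had equal counts in any steer, and no row of the matrix was identical to a family row, although 21 rows elsewhere repeated the counts of an earlier row. The ratio of miR-378c to miR-378 varied little between steers, at 6.45% ± 0.599 (SD, n = 78), between 5.19% and 8.26% per steer. Its log2 ratio had an SD of 0.133 over steers, against 0.0580 from counting error alone. Among the 251 tested miRNAs set against miR-378 in this way, miR-378c had the smallest spread, the next being 0.221 for miR-22-5p, and the median was 0.529. The plot of reads against miR-378 shows this as a narrow band.

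**Figure D1:**
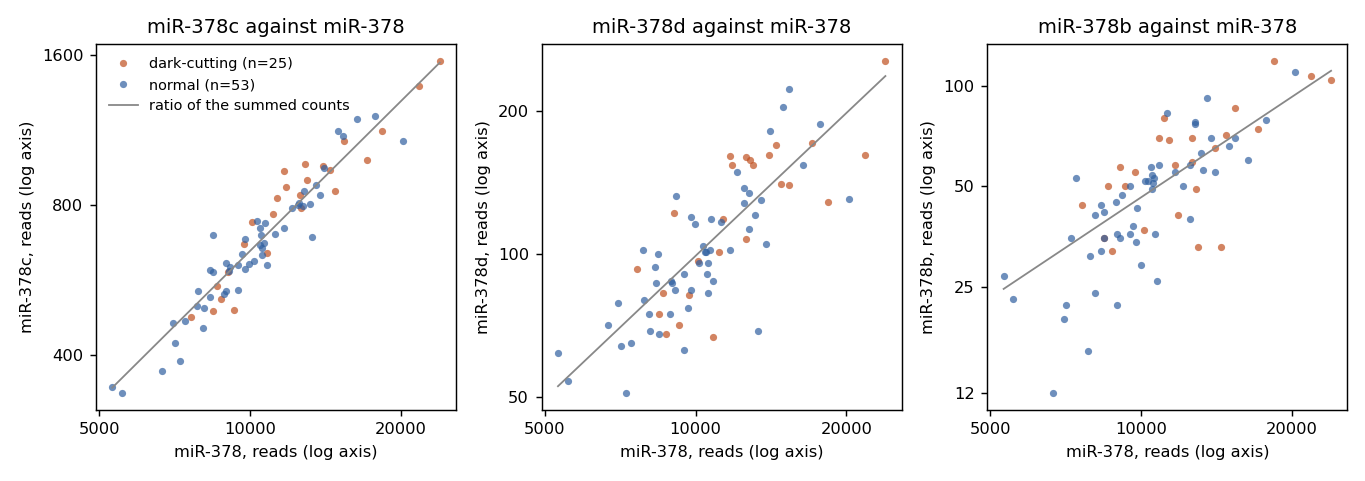
Reads of miR-378c, miR-378d and miR-378b (vertical, log axis) against reads of miR-378 (horizontal, log axis), 1 point per steer, with 25 dark-cutting and 53 normal steers in separate colours. The line marks the ratio of the summed counts, and miR-378c lies closest to it, with a log2 ratio SD of 0.133.

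The rarer rows followed miR-378 less tightly. miR-378d made up 0.995% ± 0.199 of the reads of miR-378, between 0.519% and 1.45%, with a log2 ratio SD of 0.294 against 0.145 from counting error, which placed it at rank 18 of 251. miR-378b made up 0.459% ± 0.121, between 0.180% and 0.738%, with an SD of 0.412 against 0.219, at rank 81. These spreads hold differences between animals and libraries beside counting error. How many reads were counted in more than 1 row was not tested, since reads are not used here.

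**Figure D2:**
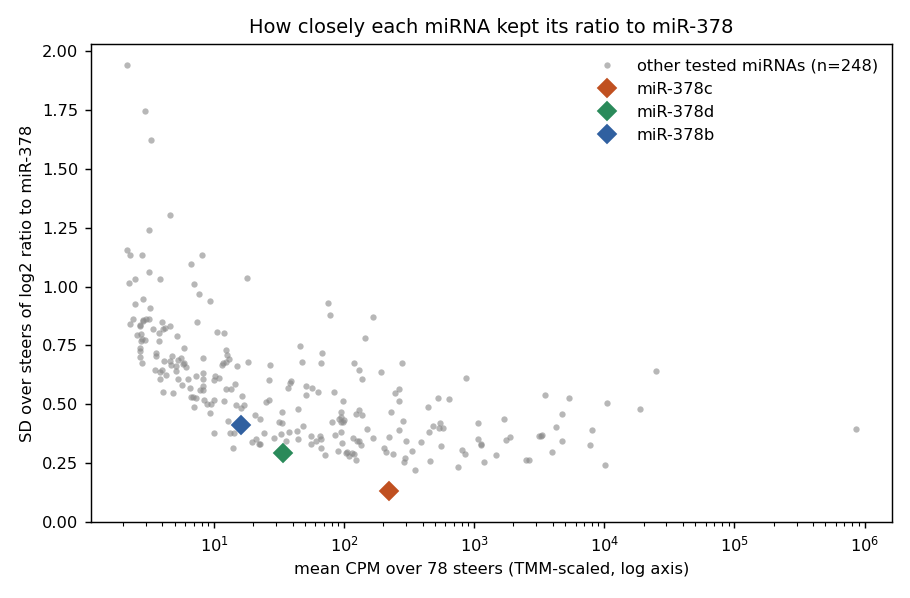
SD over 78 steers of the log2 ratio of each tested miRNA to miR-378 (vertical) against its mean TMM-scaled CPM (horizontal, log axis). miR-378c at 0.133 is the lowest point, while miR-378d at 0.294 and miR-378b at 0.412 lie below the median of 0.529.

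Within the family, levels rose and fell together across steers, most closely for miR-378 and miR-378c. Their log2 CPM correlated at Pearson r = 0.89 and Spearman rho = 0.87 (n = 78, permutation p = 1e-05 each, the smallest that the permutations can give). Without the 2 steers farthest from the median r was 0.87, and it was 0.88 within dark-cutting and 0.90 within normal steers. miR-378c and miR-378d correlated at r = 0.75 and rho = 0.71, miR-378 and miR-378b at r = 0.71 and rho = 0.73, miR-378b and miR-378c at r = 0.63 and rho = 0.58, and miR-378 and miR-378d at r = 0.58 and rho = 0.48. For these 4 pairs the largest permutation p was 3e-05 and the largest Benjamini-Hochberg value over the 26 correlations computed was 9.75e-05. The loosest pair was miR-378b with miR-378d, at r = 0.30 (permutation p = 0.00873, adjusted p = 0.0206) and rho = 0.26 (permutation p = 0.0241, adjusted p = 0.0447). Its r was 0.21 without the 2 farthest steers, -0.0043 within dark-cutting and 0.37 within normal steers. The difference between the phenotypes was not tested. Rows of 1 library share its scaling, and the part of shared reads in these values was not tested.

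The 4 rows had slightly higher mean levels in dark-cutting than in normal steers, and none passed the test. miR-378 averaged 3583 ± 701 CPM (SD, n = 25) in dark-cutting and 3361 ± 584 CPM (SD, n = 53) in normal steers. Its lowest, median and highest values were 2450, 3403 and 5647 CPM in dark-cutting steers, against 1797, 3350 and 5175 CPM in normal steers. The groups overlapped almost completely, with 24 of 25 dark-cutting steers inside the normal range and 15 of 25 above the normal median. The log2 fold change was 0.09 ± 0.06 (SE), or 1.07-fold with a 95% interval of 0.977 to 1.16 (adjusted p = 0.549 by edgeR). Without replicate 1 of degree 1/4, the highest steer, the log2 fold change was 0.06.

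miR-378c averaged 235 ± 49.5 CPM in dark-cutting and 215 ± 42.8 CPM in normal steers, with 15 of 25 above the normal median. Its lowest, median and highest values were 166, 229 and 360 CPM in dark-cutting steers, against 125, 212 and 322 CPM in normal steers. Again 24 of 25 dark-cutting steers fell inside the normal range. The log2 fold change was 0.13 ± 0.07 (SE), or 1.09-fold with an interval of 0.991 to 1.20 (adjusted p = 0.416 by edgeR).

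miR-378d averaged 35.6 ± 7.56 CPM in dark-cutting and 33.1 ± 8.21 CPM in normal steers. It ran from 21.05 over a median of 36.1 to 54.2 CPM in dark-cutting steers and from 14.5 over 32.5 to 53.9 CPM in normal steers, with 17 of 25 above the normal median. The log2 fold change was 0.11 ± 0.08 (SE), or 1.08-fold with an interval of 0.959 to 1.21 (adjusted p = 0.637 by edgeR). miR-378b averaged 17.7 ± 6.04 CPM in dark-cutting and 15.2 ± 5.96 CPM in normal steers, and all 25 dark-cutting values lay within the normal range of 4.88 to 38.2 CPM. Its fold change had the widest interval, at 1.16-fold (0.976 to 1.38) and 0.21 ± 0.13 (SE) on the log2 scale (adjusted p = 0.436 by edgeR).

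Over all 252 miRNAs, 0% passed an adjusted p under 0.05 in this comparison. In the same fit 9.13% had an unadjusted p under 0.05, none of them a family row. DESeq2 and limma-voom also made 0 calls. Some edgeR alternatives with TMM took single family rows under an unadjusted 0.05. For miR-378c it was 0.0407 without the low-count filter and 0.0296 without normal replicate 13. For miR-378b it was 0.0314 without normal replicate 4. The adjusted p was 0.358 or more in each. The log2 fold change was above 0 for 46% of the 252 miRNAs and for 4 of 4 family rows, which are correlated and so are not 4 separate observations. With TMM, the 95% intervals of miR-378, miR-378c and miR-378d ended at or below 1.21-fold, a limit that does not hold for other scalings. When libraries were scaled by total count alone, the median log2 fold change over all miRNAs was 0.10, against -0.0091 with TMM. The log2 fold changes became 0.23 ± 0.09 (SE) for miR-378, 0.33 ± 0.14 for miR-378b, 0.26 ± 0.09 for miR-378c and 0.24 ± 0.10 for miR-378d. Their unadjusted p was between 0.00630 and 0.0196 and their adjusted p between 0.241 and 0.297 by edgeR. The direction was the same under both scalings. In the authors' deposited table the log2 fold changes were 0.10 ± 0.06 (SE) for miR-378, 0.22 ± 0.13 for miR-378b, 0.13 ± 0.07 for miR-378c and 0.11 ± 0.08 for miR-378d, with adjusted p of 0.605 or more.

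**Figure D3:**
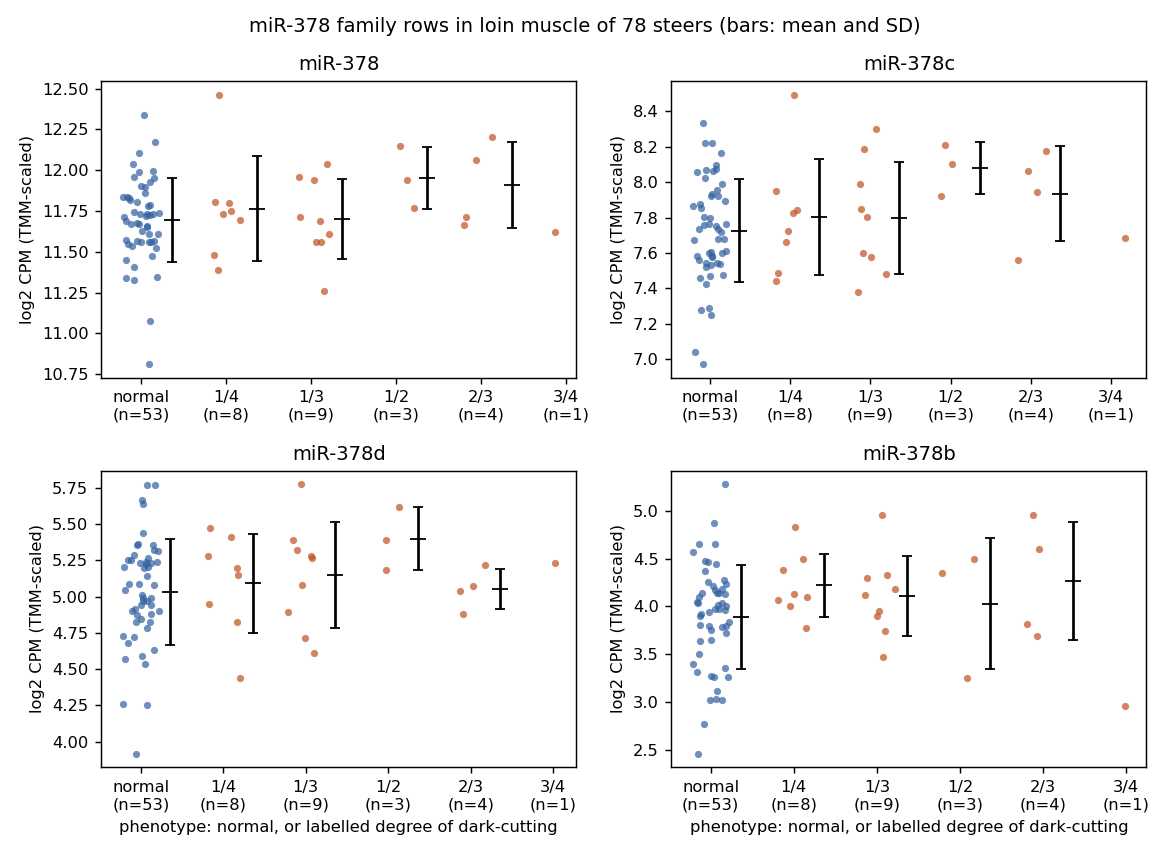
TMM-scaled log2 CPM of each family row (vertical) by phenotype, from normal over the labelled degrees of dark-cutting (horizontal), 1 point per steer, with bars for mean and SD beside groups of more than 1 steer. The groups overlap in every panel, and 1 steer of degree 1/4 stands highest in miR-378 and miR-378c.

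No difference between the phenotypes in the makeup of the family was detected. A ratio of 2 rows within a library does not depend on scaling. The ratio of miR-378c to miR-378 was 6.56% ± 0.647 (SD, n = 25) in dark-cutting and 6.40% ± 0.573 (SD, n = 53) in normal steers, a difference in mean log2 ratio of 0.04 (permutation p = 0.274, two-sided, adjusted p = 0.608 over the 6 pairs). For miR-378b to miR-378 it was 0.490% ± 0.124 and 0.444% ± 0.118, a difference of 0.14 (permutation p = 0.158, adjusted p = 0.608), with 16 of 25 dark-cutting steers above the normal median. For miR-378d to miR-378 it was 1.01% ± 0.214 and 0.988% ± 0.193 (permutation p = 0.707, adjusted p = 0.848). The 3 pairs among the rarer rows had adjusted p between 0.608 and 0.887.

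By degree, steers of 1/2 had the highest mean levels of miR-378, miR-378c and miR-378d, without passing the test. miR-378 measured 4534, 3495 and 3925 CPM in the 3 steers of degree 1/2, and all 3 lay above the normal median of 3350 CPM and inside the normal range. Its log2 fold change was 0.29 ± 0.15 (SE), or 1.22-fold with an interval of 0.996 to 1.49 (adjusted p = 0.942 by edgeR). miR-378c measured 296, 242 and 274 CPM there, at 1.29-fold (1.03 to 1.63). In the main edgeR fits by degree it was the one family value with an unadjusted p under 0.05 (p = 0.0263, adjusted p = 0.942 by edgeR). Of 272 miRNAs 4.78% reached that and 0% passed. With total count scaling the unadjusted p by edgeR was 0.0299 for miR-378, 0.0128 for miR-378c, 0.0167 for miR-378d and 0.279 for miR-378b. By limma-voom it was 0.0478, 0.0169, 0.0346 and 0.465 in the same order. Adjusted p was 0.574 or more in both. The median log2 fold change over all miRNAs was 0.17 with total count scaling, against -0.0019 with TMM. miR-378d measured 48.5, 41.4 and 35.7 CPM and was at 1.305-fold (0.994 to 1.71). miR-378b measured 19.7, 8.87 and 21.95 CPM, with 2 of 3 steers above the normal median of 15.03 CPM, and was at 1.14-fold (0.763 to 1.71). All 4 rows had a log2 fold change above 0, as did 49.6% of miRNAs.

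The 4 steers of degree 2/3 were less uniform. miR-378 measured 4709, 3244, 4277 and 3354 CPM, of which 3 exceeded the normal median, and the fold change was 1.09 (0.913 to 1.31). miR-378c measured 288, 188, 267 and 246 CPM, at 1.09-fold (0.885 to 1.33). miR-378d measured 33.03, 28.8, 36.6 and 32.2 CPM, with 2 of 4 steers above the normal median. Its mean was 32.7 CPM, against 33.1 CPM in normal steers. It was the only row with a fitted log2 fold change below 0, at 0.934-fold (0.725 to 1.20). On the log2 scale this was -0.098 with TMM, -0.039 when scaled by DESeq2's size factors and -0.0071 by total count. The median over all 272 miRNAs was -0.067, -0.0091 and -0.0032 in the same order. miR-378b, at 30.5, 13.5, 23.7 and 12.3 CPM, was at 1.24-fold (0.874 to 1.77), and its log2 fold change was 0.11 without replicate 1, against 0.31 with it. The first of these steers was high in miR-378, miR-378b and miR-378c while its miR-378d lay near the normal median of 32.5 CPM. In this comparison 0.368% of 272 miRNAs passed, 2.57% had an unadjusted p under 0.05, no family row among them, and 33.1% had a log2 fold change above 0, as did 3 of 4 family rows. The adjusted p was 0.988 for each family row by edgeR.

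Degrees 1/4 and 1/3 lay closest to normal for miR-378. It ran from 2678 over a median of 3426 to 5647 CPM in the 8 steers of degree 1/4 and from 2450 over 3302 to 4212 CPM in the 9 steers of degree 1/3. The fold changes were 1.06 (0.927 to 1.21) and 1.02 (0.898 to 1.16). The value for degree 1/4 was carried by replicate 1, at 5647 CPM: without it the log2 fold change was -0.04 for miR-378, against 0.08 with it, and -0.04 for miR-378c, against 0.08. For degree 1/3 the log2 fold change of miR-378 was -0.02 without replicate 4, against 0.03 with it. miR-378b was at 1.22-fold (0.939 to 1.58) in degree 1/4, where 7 of 8 steers exceeded the normal median, and at 1.15-fold (0.894 to 1.47) in degree 1/3. Single steers moved the values of degree 1/3: the log2 fold change of miR-378b was 0.06 without replicate 4, against 0.20 with it. Without replicate 3 that of miR-378c was 0.02, against 0.09, and that of miR-378d 0.04, against 0.13. Adjusted p was 0.998 for each row in degree 1/4 and at least 0.844 in degree 1/3 by edgeR, where 0% of 272 miRNAs passed in either. In degree 1/4 an unadjusted p under 0.05 was found for 1.1% of miRNAs and in degree 1/3 for 9.19%, in both cases for 0 family rows. All 4 rows had log2 fold changes above 0 in both degrees, as did 48.2% of miRNAs in degree 1/4 and 46.7% in degree 1/3. The single steer of degree 3/4 had 3143 CPM of miR-378, 205 of miR-378c, 36.96 of miR-378d and 7.18 of miR-378b, so that miR-378d alone was above the normal median. It has no replicate and was not tested.

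**Figure D4:**
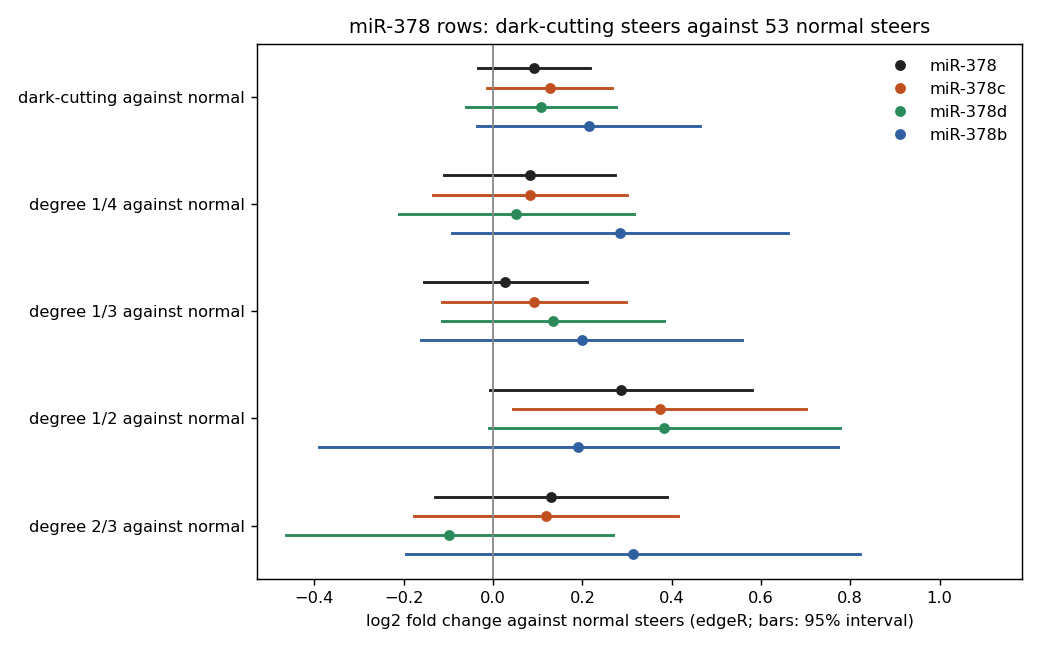
Log2 fold change of each family row against the 53 normal steers (horizontal, with 95% intervals by edgeR), for all 25 dark-cutting steers and for each degree with at least 3 steers (vertical). Every interval but that of miR-378c in degree 1/2 includes 0, and intervals widen as the number of steers falls.

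No slope on degree was resolved. Over all 78 steers, with normal taken as 0, the slope of miR-378 was 0.21 ± 0.14 (SE) log2 units per unit of degree, that of miR-378c 0.28 ± 0.16, that of miR-378d 0.21 ± 0.19 and that of miR-378b 0.34 ± 0.29 (adjusted p between 0.436 and 0.692 by edgeR). Of 272 miRNAs 0.368% passed, 11% had an unadjusted p under 0.05, with 0 family rows among them, and 44.5% had a slope above 0, as did 4 of 4 family rows. With total count scaling the slopes were 0.50 for miR-378 (unadjusted p = 0.0146), 0.57 for miR-378c (p = 0.00849), 0.51 for miR-378d (p = 0.0328) and 0.62 for miR-378b (p = 0.0519), with adjusted p between 0.257 and 0.316 by edgeR, and the median slope of all miRNAs was 0.19, against -0.04 with TMM. The slope of miR-378b with TMM was 0.20 without replicate 1 of degree 2/3 and 0.54 without the steer of degree 3/4. Within the 25 dark-cutting steers, where 0% of 251 miRNAs passed, the slopes were 0.11 ± 0.35 for miR-378, 0.10 ± 0.39 for miR-378c, -0.12 ± 0.43 for miR-378d and -0.44 ± 0.60 for miR-378b (adjusted p = 0.998 each by edgeR). An unadjusted p under 0.05 was found for 3.59% of miRNAs and 0 family rows, and 39% of miRNAs and 2 of 4 family rows had a slope above 0. The slope of miR-378b was 0.18 without the single steer of degree 3/4. Without replicate 1 of degree 1/4 the slopes of miR-378 and miR-378c were 0.44 and 0.41, and without replicate 1 of degree 2/3 that of miR-378 was 0.02. These errors leave room for slopes in either direction.

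Steers differed from one another far more than the phenotypes did. The highest miR-378 value was 3.14 times the lowest, and the corresponding figures were 2.89 for miR-378c, 3.74 for miR-378d and 7.83 for miR-378b. The biological coefficient of variation, edgeR's estimate of spread beyond counting error, was 18.5% for miR-378, 20.4% for miR-378c, 22.9% for miR-378d and 33.6% for miR-378b, where the median of the 252 miRNAs was 26.5%. miR-378 thus ranked 36 from the lowest, and miR-378b ranked 190. The highest steer in miR-378 and miR-378c was replicate 1 of degree 1/4, with 21767 reads of miR-378, and it was also the highest by share of all counts at 0.810%. The steer at the other end was normal replicate 53, lowest in miR-378, miR-378c and miR-378d at 1797, 125 and 14.5 CPM. Its share of all counts was 0.285% for miR-378, above the lowest of any steer at 0.225%, and its TMM factor was 1.59. Normal replicate 4, with a TMM factor of 0.764, was second highest in miR-378 and miR-378c and highest in miR-378b.

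The animal numbers in the titles fall into 2 ranges, and the labels do not say what the numbering marks. Steers numbered below 600 (8 dark-cutting and 18 normal) had higher family levels than the 52 others with phenotype as a covariate, at log2 differences of 0.18 ± 0.06 (SE) for miR-378, 0.32 ± 0.12 for miR-378b, 0.17 ± 0.07 for miR-378c and 0.18 ± 0.08 for miR-378d. The unadjusted p by edgeR was 0.00306 for miR-378, 0.00990 for miR-378b, 0.0114 for miR-378c and 0.0347 for miR-378d. None passed (adjusted p between 0.154 and 0.380 by edgeR), where 0.794% of 252 miRNAs did. The share of all miRNAs with an unadjusted p under 0.05 was not computed here. The 4 rows are correlated, so their 4 differences are not separate observations. The phenotype difference of miR-378 was 0.13 ± 0.12 in the lower range and 0.09 ± 0.07 in the upper one. It was 0.20 ± 0.13 and 0.10 ± 0.08 for miR-378c, 0.24 ± 0.15 and 0.05 ± 0.10 for miR-378d, and 0.14 ± 0.21 and 0.28 ± 0.14 for miR-378b. The difference between the ranges had an unadjusted p of 0.368 or more for each row by edgeR, where 3.97% of miRNAs were under 0.05.

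The family ran opposite to miR-208b, which is encoded in an intron of MYH7, the gene of the slow myosin heavy chain. Across the 78 steers, log2 CPM of miR-378 and miR-208b correlated at r = -0.66 and rho = -0.71 (permutation p = 1e-05 each, adjusted p = 3.25e-05 and 3.71e-05 over 26 correlations). Of the 251 other miRNAs tested, miR-208b was the last in rank by correlation with miR-378, below miR-195 at -0.65 and miR-27a-3p at -0.63, and the median of all was 0.01. Without the 2 farthest steers r was -0.68, and it was -0.70 within dark-cutting, -0.62 within normal, -0.67 within lower-numbered and -0.63 within higher-numbered steers. The same sign held for miR-378b and miR-378c (r = -0.64 each, rho = -0.68 and -0.66) and, more weakly, for miR-378d (r = -0.38 and rho = -0.39, permutation p = 0.00075 and 0.00051, adjusted p = 0.00217 and 0.00133). These values depend on the scaling. With total count scaling r was -0.15 for miR-378, -0.19 for miR-378c and -0.067 for miR-378d, none passing, and -0.37 for miR-378b, which passed (permutation p = 0.0008, adjusted p = 0.00139). Under that scaling miR-208b ranked 244 of 251 by correlation with miR-378, where the median r of all miRNAs with miR-378 was 0.38. With DESeq2's size factors it was -0.64 at rank 250. miR-208b itself averaged 63.8 CPM in dark-cutting and 79.9 CPM in normal steers, a log2 fold change of -0.33 ± 0.17 (adjusted p = 0.416 by edgeR).

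**Figure D5:**
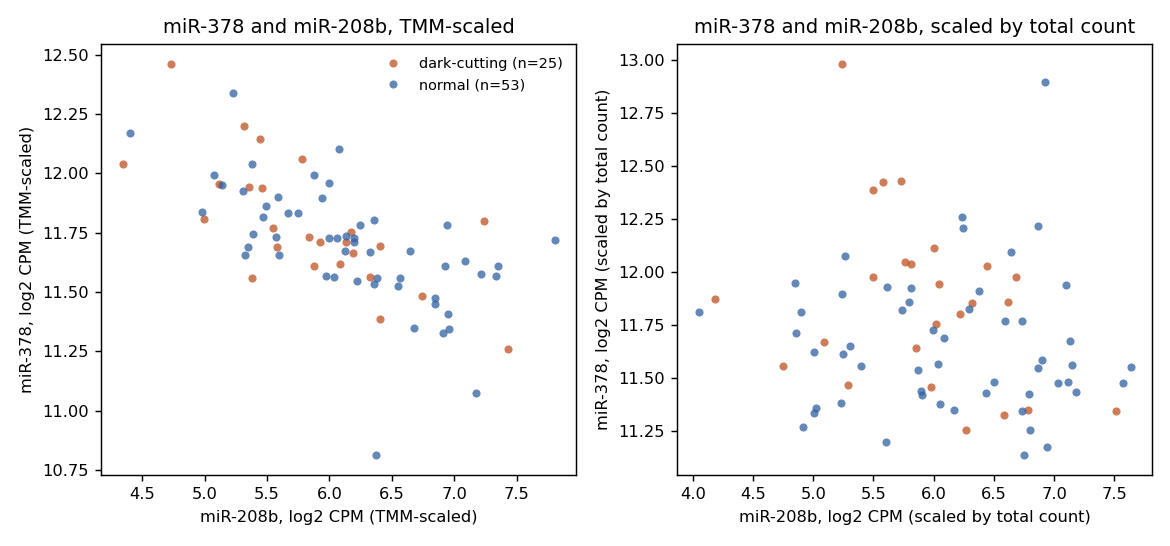
Log2 CPM of miR-378 (vertical) against log2 CPM of miR-208b (horizontal), 1 point per steer, with 25 dark-cutting and 53 normal steers in separate colours, scaled by TMM on the left and by total count on the right. The downward trend of r = -0.66 on the left is r = -0.15 on the right.

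The other muscle miRNAs had correlations nearer 0 with miR-378. miR-499, encoded in an intron of the slow-type myosin gene MYH7B, had r = -0.19 and rho = -0.21 with miR-378 (permutation p = 0.0974 and 0.0619, adjusted p = 0.169 and 0.107), r being -0.57 within dark-cutting and 0.04 within normal steers, a difference that was not tested. With miR-378c it had r = -0.26 and rho = -0.26 (permutation p = 0.0206 and 0.0211, adjusted p = 0.0446 and 0.0445), and r was -0.58 within dark-cutting and -0.07 within normal steers. With miR-378d it had r = -0.25 and rho = -0.28 (permutation p = 0.0271 and 0.0136, adjusted p = 0.0541 and 0.0323), so that rho passed and r did not. Without the 2 farthest steers r was -0.18 for miR-378c and -0.15 for miR-378d. The regeneration miRNA miR-206 had r = -0.0056 and rho = -0.12 with miR-378, and the dominant muscle miRNA miR-1 had r = 0.10 and rho = 0.07. With TMM, none of these passed (adjusted permutation p of 0.4 or more). miR-133a, a muscle miRNA, had r = -0.17 and rho = -0.26 with miR-378 (permutation p = 0.134 and 0.0222, adjusted p = 0.206 and 0.0445). With miR-378b it had r = -0.37 and rho = -0.41 (permutation p = 0.00103 and 0.00022, adjusted p = 0.00268 and 0.000636). With total count scaling the signs of miR-1, miR-133a, miR-206 and miR-499 with miR-378 all turned, to -0.53, 0.35, 0.48 and 0.08. The correlation of miR-378 with miR-378c was 0.94 under that scaling and miR-378c stayed at rank 1.

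Outside the family, the miRNAs whose levels followed miR-378 most closely over the 78 steers were miR-22-5p at r = 0.64, miR-2284y at 0.63, miR-2284a at 0.60, miR-151-5p at 0.58 and miR-320a at 0.57. In the same ranking miR-378c stood at rank 1, miR-378b at rank 2 and miR-378d at rank 6. With total count scaling, miR-22-5p at 0.81 and miR-151-5p at 0.80 were next after miR-378c, while miR-378b stood at rank 11, miR-378d at rank 13 and miR-2284a at rank 114. Seen from each row, miR-378 was the closest of 251 miRNAs to miR-378b and to miR-378c, and miR-378c was the closest to miR-378 and to miR-378d. Depth was not clearly related to the family: r with log2 total count was -0.12 for miR-378, -0.06 for miR-378b, -0.01 for miR-378c and 0.07 for miR-378d (adjusted permutation p of 0.481 or more over 8 relations). The remaining relations were with the percent of counts in miR-1, where r was 0.22, 0.18, 0.26 and 0.24 in the same order. For these r the adjusted permutation p was 0.143 or more. The rho values were 0.26, 0.25, 0.26 and 0.065. Their permutation p was 0.0219, 0.0247, 0.0238 and 0.573, with adjusted p of 0.0659 or more.

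Among other miRNAs with known links to glucose, lipid or mitochondrial metabolism, 21 names gave 22 rows, of which 17 were tested for dark-cutting against normal. None passed, 10 had a log2 fold change above 0 and 7 below, and the median was 0.03, against -0.0091 over all 252 miRNAs. The most abundant were miR-143 at 22484 CPM in dark-cutting and 26357 CPM in normal steers (-0.23 ± 0.12), miR-27b at 3379 and 3302 CPM (0.03 ± 0.05) and miR-23b-3p at 1180 and 1092 CPM (0.11 ± 0.06). The least abundant were miR-27a-5p at 4.14 and 2.99 CPM (0.46 ± 0.17, adjusted p = 0.277 by edgeR), miR-223, also a white blood cell miRNA, at 6.53 and 7.71 CPM (-0.25 ± 0.17) and miR-34a at 10.9 and 10.2 CPM (0.09 ± 0.17). The insulin-sensitivity miRNAs of the list, miR-103 and miR-107, were at 0.12 ± 0.06 and 0.08 ± 0.09.

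Markers of blood and vessel cells were read in both phenotypes, the blood markers at lower summed levels than those of smooth muscle and endothelium. Summed CPM by total count of the 3 red blood cell miRNAs ran from 426 to 1311 in dark-cutting and from 325 to 3262 in normal steers, that of 4 white blood cell rows from 36.7 to 130 and from 30.6 to 184, that of the endothelial miR-126 arms from 3226 to 8191 and from 3429 to 11064, and that of the smooth muscle miR-143 and miR-145 from 14308 to 47331 and from 12792 to 63620. Of the red blood cell rows, miR-144 averaged 5.15 CPM in dark-cutting and 9.32 CPM in normal steers (log2 fold change -0.86 ± 0.27, adjusted p = 0.182 by edgeR) and miR-451 averaged 128 and 183 CPM (-0.52 ± 0.25, adjusted p = 0.416). All 4 white blood cell rows had a log2 fold change below 0, with a median of -0.20, and miR-142-5p averaged 38.2 CPM in dark-cutting and 49.7 CPM in normal steers (-0.38 ± 0.13, unadjusted p = 0.00534, adjusted p = 0.277 by edgeR). miR-486, which muscle also expresses, averaged 580 and 548 CPM (0.08 ± 0.09) and correlated with miR-378 at r = 0.56 over steers, as a description. None of these rows was at 0 in all steers, and their part in the levels of the family was not tested. In a bulk biopsy, a change in the proportion of fibre or cell types and a change per cell cannot be told apart.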

How the data were processed

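The authors deposited unnormalized counts, whole numbers of reads for each cattle miRNA. FastQC, Trimmomatic 0.32 and DESeq2 1.34.0 are named per the submitters' processing notes. Not given in the sources used here were the aligner, the counter, the treatment of reads matching several miRNAs and any use of the kit's random adapter bases. The authors' deposited table gives a mean normalized signal, a log2 fold change with its error, a Wald score and p-values. It names no contrast, but fitting the phenotype with DESeq2 to the 542 miRNAs with at least 10 counts matched its Wald scores within 7.55e-08.

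The 4 rows were found by name pattern among 1030 rows. Members, lists and tests were chosen with earlier results of these data known. Counts were tested over all rows with the quasi-likelihood test of edgeR 4.0.16 under R 4.3.3, TMM scaling and Benjamini-Hochberg adjustment, at a threshold of 0.05. filterByExpr with a minimum count of 10 left 252 miRNAs for dark-cutting against normal. For degrees, a miRNA needed the CPM equal to 10 counts in 8 or more libraries, and a total of 15, which left 272, or 251 within dark-cutting steers. Log2 CPM used a prior count of 2. CPM values use library sizes scaled by TMM over the 252 miRNAs tested for dark-cutting against normal. Each fit computed TMM anew over its own miRNAs. A fold change by degree is a fitted value and can differ from the ratio of the CPM beside it. How much of such a difference comes from the scaling was not tested. In degree 2/3, miR-378 averaged 3896 CPM against 3361 CPM in normal steers, where the fitted fold change was 1.09. Log2 ratios added 0.5 to each count. The ratio and correlation tests drew 100000 permutations (numpy 2.4.6), two-sided. DESeq2 1.42.0, limma 3.58.1 (voom), other scalings, filters and left-out steers were the alternatives. The fits were tested on simulated data. Besides the members, miRNAs named are the 5 most correlated with miR-378, a fixed list of metabolic miRNAs (its 3 most and 3 least abundant) and markers of muscle and other cells. miR-195 and miR-27a-3p were named as neighbours of miR-208b in the ranking after their values were seen. Each steer is a separate animal by its number, and the labels name no batch. The printed intervals are those of fold changes by edgeR, and their width includes its estimate of spread beyond counting error. The SDs given as counting error leave that spread out.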

Additional observations from a re-analysis of the deposited data

Results flagged for a closer look

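The level of miR-378 in replicate 1 of degree 1/4 was 12.46 log2 CPM, where the next highest of the 8 steers was at 11.81 and the lowest at 11.39, so that 0.610 of the group's range lay in that one gap. The steer had 21767 reads of miR-378. Among 30 groups of 4 to 10 steers examined, of the 4 rows and their 6 ratios, this was the 1 that was flagged. Chance marks about 1 in 20 where groups are separate, and the 1 flag among 30 is not read as a result. These groups share steers and rows, so how many flags chance would give here was not tested.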

How the results depend on the processing

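No family row passed an adjusted p under 0.05 under any alternative in the comparisons of phenotype or degree. The numbers of all miRNAs called changed in places: 2 instead of 0 for dark-cutting against normal without a low-count filter, and, for the slope over all steers, 3 instead of 1 with DESeq2, DESeq2's size factors, total count scaling or no filter, and 0 with limma-voom. With single steers left out, that slope gave 0 to 3 calls, 0 without replicate 4 of degree 2/3, and degree 2/3 gave 0 to 1, 0 without its replicate 1 or 4. Leaving out steers took the log2 fold change against normal from -0.044 to 0.13 for miR-378 and from -0.041 to 0.13 for miR-378c in degree 1/4, from -0.0027 to 0.13 for miR-378d in degree 1/4, from -0.018 to 0.079 for miR-378 in degree 1/3 and from -0.038 to 0.46 for miR-378b in degree 1/2. Slopes within dark-cutting steers ran from 0.02 to 0.44 for miR-378, from -1.02 to 0.18 for miR-378b, from -0.0015 to 0.41 for miR-378c and from -0.21 to 0.057 for miR-378d, the last being 0.050 with total count scaling and 0.023 with the number range as covariate. Log2 ratios below number 600, given without a test, turned to -0.024 (miR-378b to miR-378c), -0.11 (miR-378b to miR-378d) and 0.088 (miR-378d to miR-378c), and in the others to -0.039 (miR-378d to miR-378). The cause was not tested. With total count scaling the correlations with miR-1 became -0.53 for miR-378, -0.26 for miR-378b, -0.45 for miR-378c and -0.38 for miR-378d. Those with miR-133a became 0.35 for miR-378, -0.00061 for miR-378b, 0.38 for miR-378c and 0.47 for miR-378d. Those with miR-206 became 0.48 for miR-378, 0.15 for miR-378b, 0.46 for miR-378c and 0.46 for miR-378d. Which of these correlations with miR-1, miR-133a and miR-206 passed under total count scaling is not printed here. Those with miR-208b became -0.15 for miR-378, -0.19 for miR-378c and -0.067 for miR-378d, none passing, and -0.37 for miR-378b, which passed. Those with miR-499 became 0.080 for miR-378, 0.00062 for miR-378b and -0.0011 for miR-378c. With DESeq2's size factors, an alternative added after seeing the data, r of miR-378d with miR-499 was -0.26 and passed (adjusted p = 0.0423), where with TMM r was -0.25 (adjusted p = 0.0541) and rho, at -0.28, had passed. No paired analysis was possible because the labels give no replicate numbers that link steers of different groups. Depth limits miR-378b most, at 12 reads in its shallowest library.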
